A study of Rattus norvegicus with 12 samples.

Results

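Tenomodulin (Tnmd), chondromodulin (Cnmd) and a small set of tendon and joint genes were followed across 3 cartilage zones of the rat proximal tibia. The set was fixed by name as Tnmd, Cnmd, Scx, Mkx, Tppp3, Cilp and Cilp2, and the brightest transcript cluster carrying a gene's symbol stood for it. Of these 7 genes, 6 had a cluster, 1 each, among the 14300 genes with a symbol of their own on the array. Mkx, a homeobox regulator of tendon, had none and is not analysed here.

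RNA of Sprague-Dawley rats aged 10 days, with no treatment named in the labels, was hybridised to 12 rat whole-transcript arrays (Affymetrix Rat Gene ST). Articular cartilage gave 4 arrays of its superficial zone (SZ) and 4 of the intermediate/deep zone (IDZ) beneath, and growth plate cartilage gave 4 arrays of its resting zone (RZ). The zones were cut by hand with a razor blade from stained sections, so each sample is a layer of tissue with all the cells in it. An SZ sample held the tibias of 1 animal (animals 5 to 8), whereas an IDZ or RZ sample pooled 2 animals, with the same 2 animals behind an IDZ sample and the RZ sample that bears its number. Animals 5 to 8 also gave IDZ and RZ replicates 3 and 4, so the zones are not independent sets of animals, while replicates within a zone are separate animals or pools. Strain, age and array type were shared by all groups. All 12 arrays had similar medians, from 6.76 to 6.90, and SZ replicate 4 had the narrowest interquartile range (2.24, against at most 2.91 on the others), all on the log2 scale.

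Tendon and hyaline cartilage arise from neighboring mesenchymal cells of the limb. Scleraxis, the product of Scx, is a basic helix-loop-helix factor that marks tendon and ligament progenitors and binds E-boxes with a partner protein, and Tnmd is a late tendon gene that depends on it in mouse. Tenomodulin and chondromodulin are related membrane glycoproteins with a BRICHOS domain and a C-terminal part that inhibits vessel growth, the one known from tendon and ligament and the other from cartilage, both tissues poor in vessels. Tppp3, a tubulin-binding protein, marks tendon sheath cells in mouse, and Cilp and Cilp2 are secreted matrix proteins of cartilage and other connective tissues.

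The members divided by zone. In SZ, 4 of the 6 genes (Tnmd, Tppp3, Cilp and Cilp2) were at least 2-fold higher than in IDZ and than in RZ at an adjusted p under 0.05 by limma, while none was lower by this rule. Scx was higher in SZ and Cnmd lower in SZ at the same adjusted p, both by less than 2-fold. Against IDZ, 2.96% of all clusters were higher and 0.977% lower in SZ by the 2-fold rule, and against RZ 3.19% were higher and 1.35% lower. By adjusted p alone 5 members were higher and 1 lower in SZ in each comparison. Over all clusters 11.8% were higher and 11.2% lower in SZ against IDZ by adjusted p alone, and 10.0% were higher and 11.1% lower against RZ. The SZ arrays of all 6 members lay clear of the IDZ arrays and of the RZ arrays, as did those of 22.3% and 22.0% of all clusters. The comparisons of SZ with IDZ and of SZ with RZ use the same SZ arrays. Between IDZ and RZ 0 of the 6 members passed the rule or the adjusted p alone (limma), where 0.918% and 6.73% of all clusters did. At an unadjusted p under 0.05 Tnmd alone passed. Without SZ replicate 4, the array that stood apart in spread, the SZ minus IDZ differences were 4.76 for Tnmd, 3.97 for Tppp3, 2.35 for Cilp, 2.31 for Cilp2, 0.93 for Scx and -0.92 for Cnmd on the log2 scale, each somewhat larger in size than with it. Against RZ that array decided 1 call, since Cnmd reached -1.01 without it and thus the 2-fold rule. Without SZ replicate 1 instead, the SZ minus IDZ differences were 4.44 for Tnmd, 3.73 for Tppp3, 2.18 for Cilp and 2.11 for Cilp2. Those of Scx and Cnmd were then 0.77 and -0.78. All but that of Cilp were smaller in size than with SZ replicate 1.

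**Figure D1:**
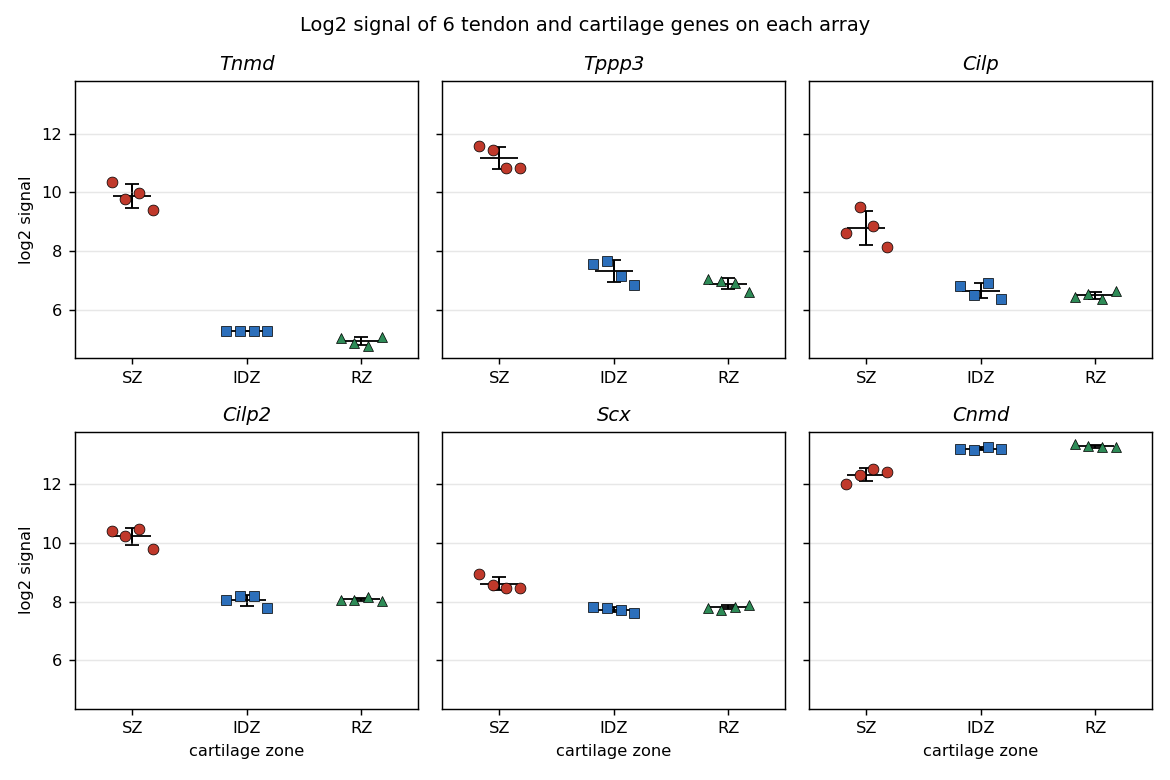
Log2 signal (vertical axis) of Tnmd, Tppp3, Cilp, Cilp2, Scx and Cnmd on each of the 12 arrays, with 4 arrays per zone; horizontal bars are zone means and error bars the SD. In all 6 panels the SZ points lie clear of the IDZ and RZ points, above them for 5 genes and below them for Cnmd.

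Tnmd and Aspn, a small proteoglycan gene of the fibroblast list, had the largest differences between SZ and IDZ of all 14300 genes, both 4.60 on the log2 scale and not to be ranked against each other (standard errors 0.16 and 0.31). The log2 signal of Tnmd was 10.36, 9.77, 9.99 and 9.38 in SZ, against 5.28, 5.28, 5.29 and 5.26 in IDZ and 5.04, 4.87, 4.78 and 5.08 in RZ. SZ replicate 1 was the highest and SZ replicate 4 the lowest of the SZ arrays, and both lay more than 4 log2 units above every IDZ and RZ array. Tnmd was 24.2-fold higher in SZ than in IDZ (95% confidence interval 19.2 to 30.5; log2 difference 4.60, standard error 0.16, limma adjusted p = 2.5e-10). It was 30.6-fold higher in SZ than in RZ (24.3 to 38.5; log2 difference 4.93, adjusted p = 1.5e-11, limma), the sixth in size among all genes. The zone means were 9.88 ± 0.41 in SZ, 5.28 ± 0.012 in IDZ and 4.94 ± 0.14 in RZ (SD, n = 4 each). No detection call was used here, so whether Tnmd was above background in IDZ and RZ is not known.

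Between IDZ and RZ the Tnmd values did not overlap either. IDZ exceeded RZ by 0.34 (95% interval 0.0032 to 0.67, limma adjusted p = 0.25), and 1 of the 6 members had non-overlapping arrays in this comparison, as did 20.2% of all clusters. With the IDZ and RZ arrays fitted alone, without the more variable SZ arrays, the adjusted p was 0.015 (limma). This was the lowest of 24 alternative settings for Tnmd in this comparison. Without SZ replicate 4 the limma adjusted p was 0.056, and without RZ replicate 3 it was 0.43.

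Cnmd ran the other way. Its log2 signal was 12, 12.33, 12.53 and 12.43 in SZ, against 13.21, 13.15, 13.26 and 13.21 in IDZ and 13.36, 13.30, 13.27 and 13.25 in RZ. All SZ arrays lay below all IDZ and RZ arrays, with SZ replicate 1, the highest for Tnmd, the lowest for Cnmd. The log2 difference was -0.89 between SZ and IDZ (standard error 0.10, adjusted p = 1.6e-05) and -0.97 between SZ and RZ (adjusted p = 4.8e-06), both by limma. That is 0.46 to 0.63 of the IDZ level and 0.44 to 0.60 of the RZ level by the 95% intervals, which include the 2-fold limit. The estimates, 1.85-fold and 1.96-fold lower in SZ, did not reach it. The zone means were 12.32 ± 0.23 in SZ, 13.21 ± 0.046 in IDZ and 13.30 ± 0.048 in RZ (SD, n = 4 each). IDZ and RZ differed by -0.087 (95% interval -0.31 to 0.14, limma adjusted p = 0.73), with overlapping arrays.

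The ratio of the 2 relatives within an array cancels a shift in brightness shared by all genes of that array. It does not cancel a difference in spread between arrays, such as that of SZ replicate 4. Tnmd over Cnmd was -1.64, -2.56, -2.54 and -3.04 on the log2 scale in SZ, against -7.93, -7.87, -7.97 and -7.95 in IDZ and -8.32, -8.43, -8.49 and -8.16 in RZ. The arrays of the 3 zones did not overlap, with SZ highest and RZ lowest. Every step between zones rests at least in part on Tnmd signals of IDZ or RZ, which are not known to be above background. The mean ratio was higher in SZ than in IDZ by 5.48, higher in SZ than in RZ by 5.91 and higher in IDZ than in RZ by 0.42 log2 units. Each gave p = 0.0286 in a two-sided exact permutation test, the smallest that 4 against 4 arrays allow, and p = 0.0571 after adjustment over the 6 ratio tests made. A ratio of different probes says how unequally the genes differed between zones, not which is more abundant.

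**Figure D2:**
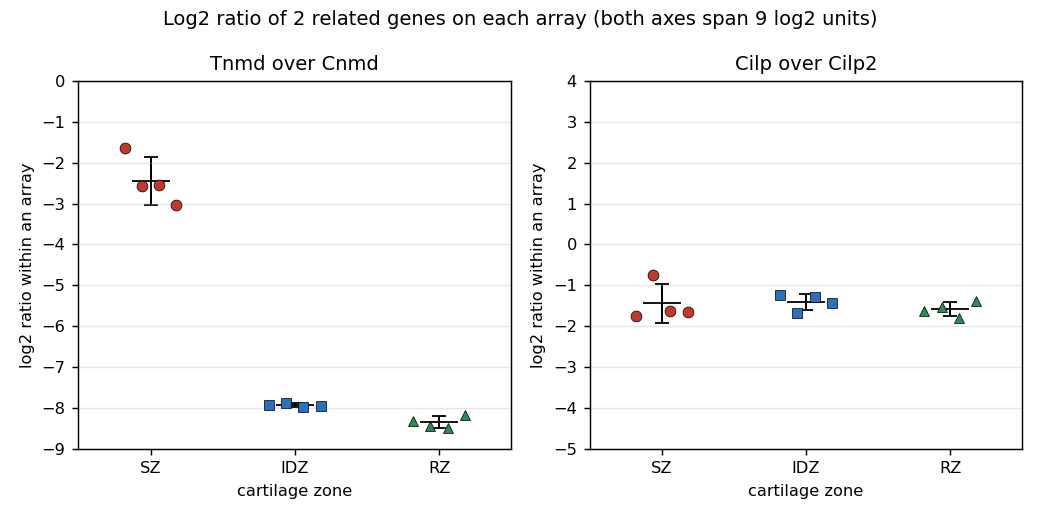
Log2 ratio within each array (vertical axis) of Tnmd over Cnmd on the left and Cilp over Cilp2 on the right by zone; horizontal bars are zone means and error bars the SD, n = 4 arrays each. The zone means of Tnmd over Cnmd were -2.44, -7.93 and -8.35 in SZ, IDZ and RZ, whereas those of Cilp over Cilp2 were -1.44, -1.41 and -1.59.

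Other genes with a BRICHOS domain were counted beside Tnmd and Cnmd. Of the 6 measured from a list of 7 (Itm2a, Itm2b, Itm2c, Sftpc, Gkn1 and Gkn2), none passed the 2-fold rule in any comparison. By adjusted p alone Itm2b and Itm2c, members of a membrane protein family, were higher in SZ than in IDZ, by 0.71 and 0.32 log2 units (limma adjusted p = 1.9e-04 and 0.020). Of all clusters 11.8% were higher in SZ than in IDZ by adjusted p alone. The median difference of these 6 genes between SZ and IDZ was 0.079, beside -0.075 over all clusters.

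Scx, the regulator, was higher in SZ by less than 2-fold. Its log2 signal was 8.94, 8.57, 8.46 and 8.47 in SZ, against 7.81, 7.79, 7.70 and 7.60 in IDZ and 7.80, 7.71, 7.83 and 7.89 in RZ. SZ replicate 1 was again the highest, and no SZ array overlapped the others. Scx was 1.84-fold higher in SZ than in IDZ (95% interval 1.57 to 2.17, limma adjusted p = 2.4e-05) and 1.74-fold higher in SZ than in RZ (1.48 to 2.05, limma adjusted p = 5.1e-05). IDZ and RZ differed by -0.081 log2 units, with an interval of -0.31 to 0.15 (limma adjusted p = 0.76). In the RefSeq gene table Scx lies within the span of Bop1, a ribosome assembly gene, the only overlap found among the 6 members. Whether probes of the Scx cluster also match Bop1 transcripts was not tested, so the Scx signal may not be of Scx alone. Bop1 averaged 8.40 in SZ, 8.18 in IDZ and 8.42 in RZ, and its differences passed no test (limma adjusted p = 0.20 between SZ and IDZ and 0.93 between SZ and RZ).

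Other regulators of tendon development were counted next. Of 8 measured from a list of 12, 2 passed the 2-fold rule between SZ and IDZ, both higher in SZ, and 2 did between SZ and RZ, beside 2.96% and 3.19% of all clusters in that direction. Egr1, a zinc finger factor that responds to mechanical load, was higher in SZ than in IDZ by 2.24 and Twist1, a helix-loop-helix factor, by 1.39 log2 units (limma adjusted p = 3.9e-07 and 4.9e-07). Tcf12, which encodes an E protein of the kind that pairs with helix-loop-helix factors, was higher by 0.60 (adjusted p = 1.1e-04, limma), less than 2-fold, and Tcf3, of the same kind, differed by 0.05 (limma adjusted p = 0.78). The median difference of the list between SZ and IDZ was 0.26.

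TGF-beta and FGF signals act upstream of Scx in mouse limb tendons. In SZ against IDZ 3 of 18 measured genes of this list of 21 passed the 2-fold rule, all higher in SZ, as were 2.96% of all clusters. Spry1 and Dusp6, feedback inhibitors induced by FGF signaling, were higher by 2.06 and 1.61, and the ligand Tgfb3 by 1.80 log2 units (limma adjusted p = 3.0e-07, 1.5e-06 and 6.4e-09). In SZ against RZ 8 of the 18 passed, all higher in SZ, as were 3.19% of all clusters. Between IDZ and RZ 2 passed, Ltbp1, which anchors latent TGF-beta in matrix, by 1.51 and Spry2 by 1.05, both higher in IDZ (limma adjusted p = 2.6e-06 and 1.4e-05), as were 0.519% of all clusters. The medians were 0.25, 0.83 and 0.41 in the 3 comparisons.

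Promoter stretches are shown because an E-box, the letters CANNTG, is the kind of site that scleraxis binds and because Tnmd, Cilp and Cilp2 were high in SZ together. RefSeq windows of build GRCr8, 250 bases before to 50 after a start, were held here for Tnmd, Cilp and Cilp2. The 250 bases before the Tnmd start lie on the plus strand at chrX:101350182-101350431.
Tnmd: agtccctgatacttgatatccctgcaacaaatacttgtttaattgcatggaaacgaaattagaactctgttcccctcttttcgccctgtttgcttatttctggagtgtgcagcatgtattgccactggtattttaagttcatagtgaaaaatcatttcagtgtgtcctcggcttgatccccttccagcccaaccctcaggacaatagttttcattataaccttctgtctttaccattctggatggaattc
The Cilp and Cilp2 windows each held 2 E-boxes, shown in capitals with 12 bases on each side, on the plus strand at chr8:74672224-74672253 and chr8:74672344-74672373 for Cilp and at chr16:19573899-19573928 and chr16:19574035-19574064 for Cilp2.
Cilp, first: tctgctggctgcCAGATGggaaatggcttt
Cilp, second: agtagcctgaacCAACTGgtacagcggtct
Cilp2, first: gggcacaggaccCAGGTGgagaaggagggg
Cilp2, second: tttagttccctgCAGCTGccaggcccgccc
The E-boxes began 212 and 92 bases before the Cilp start and 196 and 60 bases before the Cilp2 start. No CANNTG was found on either strand in the 300 bases of the Tnmd window. Of 33469 windows of the same length, 72.1% held at least 1 CANNTG, so a match is common and is only a description. CAGAC, the letters of a Smad binding element, occurred at 2 places in the Cilp window and at 1 in the Cilp2 window on either strand, at 0 in the Tnmd window and in 50.1% of all windows.

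Tppp3 had the sixth largest difference between SZ and IDZ of all genes. Its log2 signal was 11.56, 11.44, 10.84 and 10.84 in SZ, against 7.57, 7.66, 7.15 and 6.85 in IDZ and 7.06, 6.98, 6.92 and 6.6 in RZ. The SZ arrays lay at least 3.18 log2 units above every IDZ array. Tppp3 was 14.6-fold higher in SZ than in IDZ (95% interval 10.9 to 19.5, limma adjusted p = 7.1e-09) and 19.4-fold higher in SZ than in RZ (14.5 to 26.0, limma adjusted p = 6.3e-10). IDZ exceeded RZ by 0.41, with overlapping arrays and an interval of -0.0090 to 0.84 (limma adjusted p = 0.27). Of its relatives, Tppp was higher in SZ than in IDZ by 1.27 (limma adjusted p = 6.9e-05) and Tppp2 differed by -0.13 (limma adjusted p = 0.56).

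Tppp3 also differed between the samples of a zone. The samples that held animals 7 or 8 deviated from their zone means by -0.33 and -0.33 in SZ, -0.46 in IDZ and -0.29 in RZ, and were thus lowest in every zone. In RZ, replicate 4 was the lowest array for 3 of the 6 members and the highest for Tnmd, Scx and Cilp. In SZ replicate 4 was the lowest array for 4 members and in IDZ for 5. The same arrays had the lowest mean level of the endothelial markers, 9.02 in SZ replicate 4, 6.47 in IDZ replicate 4 and 6.28 in RZ replicate 4, where the highest arrays had 9.69, 7.00 and 6.61. The mural markers were also lowest on these 3 arrays (9.45, 7.69 and 7.67), as was the tendon matrix list (11.60, 10.15 and 9.40), so the low arrays were not particular to 1 list. Not every list was lowest there. The fibroblast, macrophage and joint surface lists were lowest on replicate 4 in SZ and IDZ, but on replicate 1 in RZ (6.13, 6.44 and 6.14). The part of the animals, of other cells or of the arrays in the Tppp3 values was not tested.

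Cilp and Cilp2 were both more than 4-fold higher in SZ than in IDZ and than in RZ. Cilp had 8.63, 9.50, 8.84 and 8.14 in SZ, against 6.82, 6.51, 6.91 and 6.35 in IDZ and 6.43, 6.54, 6.35 and 6.65 in RZ, on the log2 scale. It varied most of the 6 genes in SZ, over 1.37 log2 units, with SZ replicate 2 the highest. Cilp2 had 10.39, 10.25, 10.46 and 9.80 in SZ, against 8.05, 8.18, 8.20 and 7.79 in IDZ and 8.07, 8.06, 8.15 and 8.03 in RZ. SZ replicate 4 was the lowest SZ array for both genes, and neither gene's SZ arrays overlapped those of IDZ or RZ.

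In SZ against IDZ, Cilp was 4.39-fold higher (95% interval 3.19 to 6.04, limma adjusted p = 3.4e-06) and Cilp2 4.50-fold higher (3.68 to 5.49, limma adjusted p = 3.0e-08). In SZ against RZ, Cilp was 4.88-fold higher (3.55 to 6.73, limma adjusted p = 1.2e-06) and Cilp2 4.42-fold higher (3.62 to 5.40, limma adjusted p = 1.4e-08). Between IDZ and RZ the log2 differences were 0.15 for Cilp (-0.31 to 0.62, limma adjusted p = 0.77) and -0.024 for Cilp2 (-0.31 to 0.26, limma adjusted p = 0.95). The log2 ratio of Cilp over Cilp2 averaged -1.44 ± 0.47 in SZ, -1.41 ± 0.20 in IDZ and -1.59 ± 0.17 in RZ (SD, n = 4 each). Its differences of -0.035 between SZ and IDZ, 0.14 between SZ and RZ and 0.18 between IDZ and RZ had p = 0.971, 0.771 and 0.229 in two-sided exact permutation tests, and 0.971, 0.926 and 0.343 after adjustment over the 6 ratio tests. The spread within SZ leaves room for unequal change of the pair, since leaving out single arrays moved the first difference between -0.27 and 0.068.

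**Figure D3:**
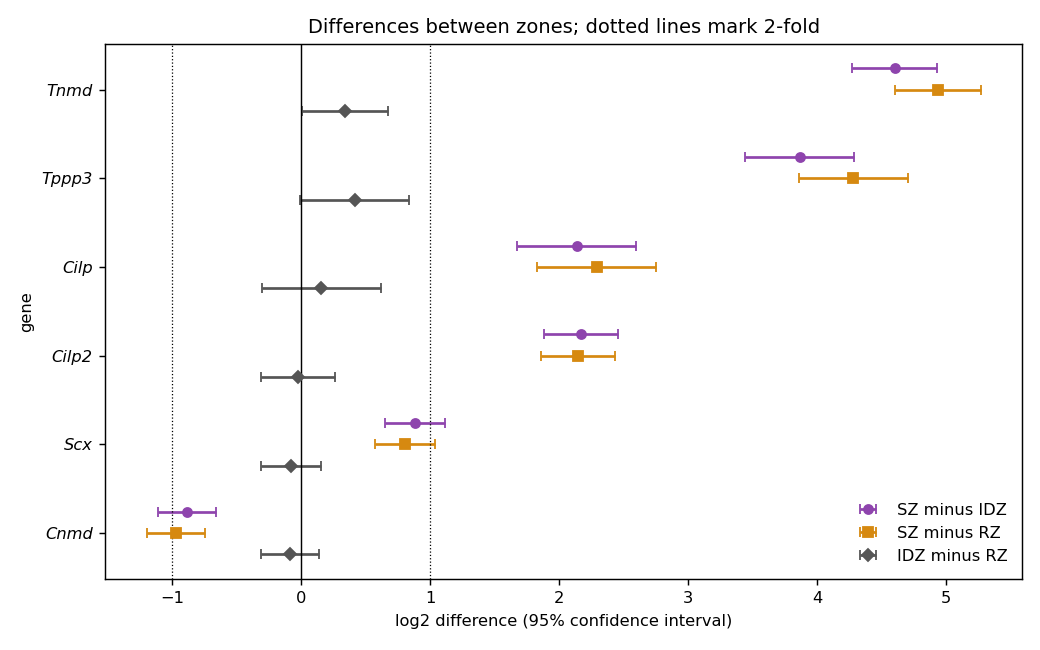
Log2 difference (horizontal axis) between zones for each gene with its 95% confidence interval from limma, for SZ minus IDZ (circles), SZ minus RZ (squares) and IDZ minus RZ (diamonds); dotted lines mark 2-fold. The SZ differences ran from 4.93 for Tnmd to -0.97 for Cnmd, whereas every IDZ minus RZ difference lay between -0.087 and 0.41.

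Many genes of tendon matrix were higher in SZ as well, and some of them also differed between IDZ and RZ. Of 14 measured from a list of 19, 9 passed the 2-fold rule between SZ and IDZ and 11 between SZ and RZ, all higher in SZ, beside 2.96% and 3.19% of all clusters, with medians of 1.69 and 2.53. Kera, a small leucine-rich proteoglycan, was higher in SZ than in IDZ by 4.36, and the fibrillar collagens Col5a2, Col1a1 and Col1a2 by 2.30, 1.93 and 1.92 log2 units (limma adjusted p = 2.0e-09, 2.5e-07, 2.8e-04 and 8.6e-05). The collagen-binding proteoglycans Dcn and Fmod differed between SZ and IDZ by -0.16 and 0.06 (limma adjusted p = 0.35 and 0.63). Between IDZ and RZ 4 of the 14 passed, all higher in IDZ, beside 0.519% of all clusters in that direction. Of the list, 9 passed by adjusted p alone, all higher in IDZ, beside 6.73% of all clusters in either direction. The latter were 760 clusters higher and 1080 lower in IDZ. Col3a1 was higher in IDZ than in RZ by 1.97 and Col1a2 by 1.35 log2 units (limma adjusted p = 5.0e-07 and 6.3e-03), and the median of the list was 0.61, against 0.065 for the 6 members. Whether the list and the members differ in this was not tested.

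**Figure D4:**
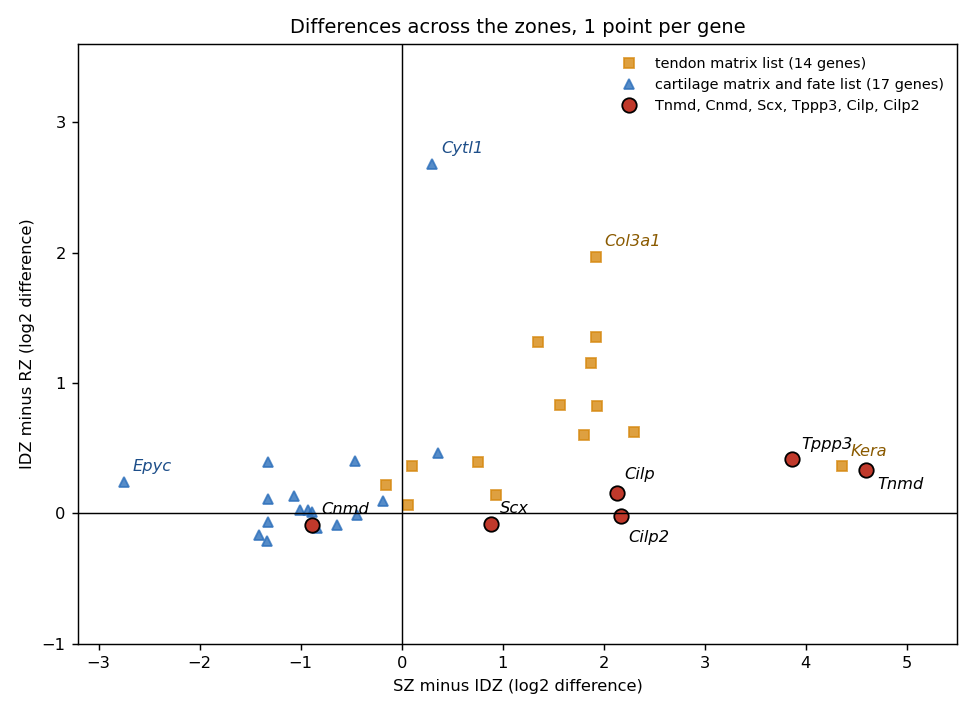
Log2 difference SZ minus IDZ (horizontal axis) against IDZ minus RZ (vertical axis), 1 point per gene, for the 6 members (circles), 14 tendon matrix genes (squares) and 17 cartilage genes (triangles); both axes use the same IDZ arrays. The members lay between -0.087 and 0.41 on the vertical axis, where Col3a1 reached 1.97 and Cytl1 2.68.

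Genes of cartilage matrix and fate moved on the side of Cnmd. Of 17 measured from a list of 20, 8 passed the 2-fold rule between SZ and IDZ. All 8 were lower in SZ, beside 0.977% of all clusters in that direction. By adjusted p alone 14 passed, all lower in SZ, beside 11.2% of all clusters in that direction. The median difference of the list was -0.93. Epyc, a leucine-rich proteoglycan of growth cartilage, fell by 2.75 log2 units in SZ against IDZ (limma adjusted p = 4.7e-06). The proteoglycan gene Snorc, the chondroitin sulfotransferase gene Chst11 and the matrilin gene Matn3 had SZ minus IDZ differences of -1.41, -1.34 and -1.32 (limma adjusted p = 4.2e-07, 3.3e-07 and 7.1e-07). Col2a1, the main collagen of hyaline cartilage, differed by -0.19 (limma adjusted p = 0.11), with means of 13.65 in SZ, 13.84 in IDZ and 13.75 in RZ. Against RZ 5 of the 17 were lower and 1 higher in SZ by the 2-fold rule, beside 1.35% and 3.19% of all clusters. The one higher was Cytl1, a secreted factor made by chondrocytes, which was also the only gene of the list that passed between IDZ and RZ, higher in IDZ by 2.68 (limma adjusted p = 9.5e-08).

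Since Tnmd and Cnmd both inhibit vessel growth, other regulators of vessels were counted. Of 9 measured from a list of 13, 2 were higher and 2 lower in SZ than in IDZ by the 2-fold rule, where 2.96% of all clusters were higher and 0.977% lower. The inhibitors Serpinf1 and Adamts1 were higher in SZ by 2.05 and 1.78 log2 units (limma adjusted p = 1.7e-06 and 7.7e-07). Angpt1, a ligand that stabilizes vessels, fell by 1.80 and Vegfa, the main vessel growth factor, by 1.09 log2 units in SZ against IDZ (limma adjusted p = 4.0e-06 and 1.4e-04). Vegfa no longer met the rule when IDZ replicate 1 was left out. By adjusted p alone 5 of the 9 were higher and 3 lower in SZ than in IDZ, beside 11.8% and 11.2% of all clusters. These took in Pgf, Angpt2 and Timp3, higher by 0.88, 0.73 and 0.83, and Vegfb, lower (-0.55). Against RZ 2 were higher and 0 lower in SZ by the 2-fold rule, beside 3.19% and 1.35% of all clusters. Vegfa and Angpt1 differed there by -0.90 and -0.87. Serpinf1 was also higher in IDZ than in RZ by 1.13 (limma adjusted p = 1.9e-03), a call that did not hold without RZ replicate 1.

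Markers of cells other than chondrocytes were also higher in SZ. In SZ against IDZ, 8 of 8 measured endothelial markers (of 11 listed), 5 of 7 mural, 7 of 8 macrophage and 6 of 7 fibroblast markers passed the 2-fold rule, all higher in SZ, as were 2.96% of all clusters. Joint surface markers passed in 4 of 6 cases, all higher in SZ, among them Prg4, the lubricin of the articular surface, by 2.47 and Cd55 by 3.55. Of 5 chondrocyte markers, 1 passed, Matn1, with a difference of -1.32, and of 6 skeletal muscle markers Des was higher and Tnnt3 lower. The mean level of the fibroblast list ranged over 9.75 to 10.23 in SZ, 7.43 to 7.92 in IDZ and 6.13 to 6.50 in RZ, and that of the macrophage list over 8.33 to 9.36, 6.79 to 6.87 and 6.44 to 7.09. The mean level of the chondrocyte list ranged over 12.13 to 12.41 in SZ, 13.04 to 13.13 in IDZ and 12.94 to 13.09 in RZ. Of the other lists, 2 of 4 adipocyte, 1 of 2 osteoclast, 1 of 5 osteoblast, 1 of 4 hypertrophic chondrocyte, 0 of 3 erythroid and 0 of 2 Schwann cell markers were higher in SZ than in IDZ by the rule. None of these markers was lower by the rule. By adjusted p alone the hypertrophic list had 1 higher and 2 lower in SZ, Col10a1 (-0.82) and Ihh (-0.42). The osteoblast list had 1 higher and 1 lower by adjusted p alone, the latter Sp7 (-0.58). The mural list had 6 higher and 1 lower in SZ than in IDZ by adjusted p alone, the latter Cspg4 (-0.37). No marker has a true zero on this array. In these bulk samples a change in the number of cells of a type and a change of RNA per cell cannot be told apart, and the part of other cell types in the members' differences was not tested.

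**Figure D5:**
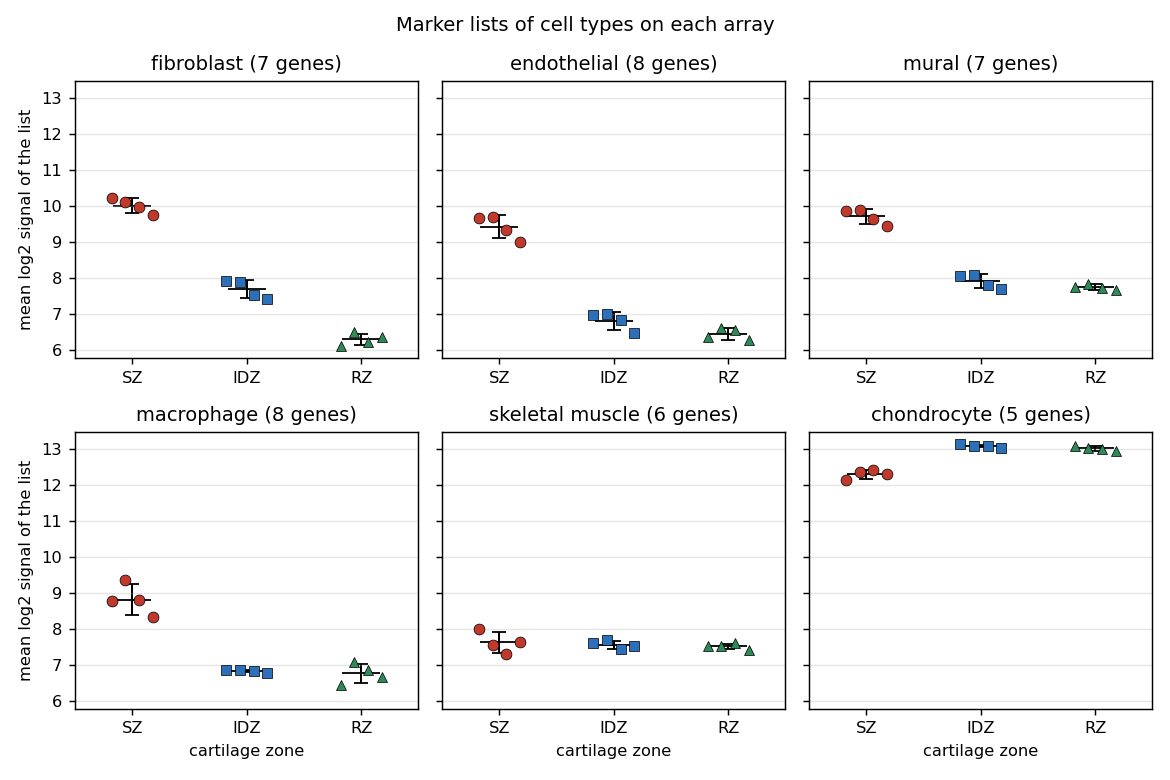
Mean log2 signal (vertical axis) of 6 cell type marker lists on each of the 12 arrays by zone; horizontal bars are zone means and error bars the SD, n = 4 arrays each. The fibroblast, endothelial, mural and macrophage lists were highest in SZ and the chondrocyte list was lowest there, at 12.13 to 12.41.

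The genes whose values ran most like each member over the 12 arrays are given by Pearson r, as a description only, since the arrays fall into zones and most of r is the step between them. For Tnmd these were Kera (0.997), Anxa1 (0.996) and S100a10 (0.996), and for Cilp2 Kera (0.993), Anxa1 (0.993) and Otulinl (0.993). For Tppp3 they were Emcn (0.997) and Notch3 (0.997), which stand in the endothelial and mural marker lists, and Ablim1 (0.995). For Cilp they were Tmod2 (0.995), Clec4a1 (0.988) and Tcf4 (0.988), and for Scx Maob (0.982), Tspan12 (0.981) and Pde5a (0.980). For Cnmd they were Snorc (0.995), Med12l (0.987) and Chst11 (0.987), of which Snorc and Chst11 stand in the cartilage list. The number of genes with r above 0.95 was 480 for Tnmd, 489 for Tppp3, 475 for Cilp2 and 390 for Cilp, but 125 for Scx and 72 for Cnmd.

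All 6 members varied most between arrays in SZ, where 71.5% of all clusters had their largest SD. The SD of Tnmd was 0.41 in SZ, 0.012 in IDZ and 0.14 in RZ, and that of Cnmd 0.23, 0.046 and 0.048, on the log2 scale. Tppp3 was nearly as variable in IDZ (0.38) as in SZ (0.39). SZ samples were single animals and IDZ and RZ samples pools, so zone and pooling cannot be told apart in these spreads.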

How the data were processed

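The authors summarised the arrays by RMA (robust multi-array average: background adjustment, quantile normalization, median polish) in Partek Genomics Suite 6.6 and deposited 1 log2 value per transcript cluster. These 27342 clusters were used as deposited. The annotation gives 15068 of them 1 gene symbol, and the brightest cluster stood for a gene. Depth has no meaning for arrays, and the number of arrays limits the precision.

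Zones were compared with limma 3.58.1 (R 4.3.3) over all 12 arrays, with 1 mean per zone and Benjamini-Hochberg adjustment over all clusters; the 2-fold rule asks for an adjusted p under 0.05 and at least 2-fold. Ratios were tested with scipy 1.17.1. The fit was tested on simulated data. By the labels, equal numbers in IDZ and RZ mean the same animals. Their departures from zone means, taken pair by pair, had correlations of 0.018, 0.022, 0.027 and 0.205 (consensus within animal pairs over the zones, -0.141), and the replicate block was an alternative, as were other scalings, filters, variances and each array left out. The named genes are the members, up to 4 called genes per pathway list (2 more for IDZ and RZ), 2 per marker list and the 3 most alike per member; a few others of the lists were named after their values were seen. Members and lists were chosen with earlier results of these data known.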

Additional observations from a re-analysis of the deposited data

Results flagged for a closer look

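The ratio of Cilp over Cilp2 in SZ replicate 2 was -0.74 on the log2 scale, far from the other SZ arrays, which lay between -1.75 and -1.62. The gap was 0.867 of the range of the group, above Dixon's 95% critical value for 4 samples. A total of 24 groups of 4 values were examined, and chance marks about 1 in 20. On that array Cilp was the highest of all SZ arrays (9.50), while Cilp2 (10.25) lay within the others.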

How the results depend on the processing

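The number of members called was 4 for SZ against IDZ and for SZ against RZ and 0 for IDZ against RZ, and stayed within 1.5 times of that under all 24 alternatives in each comparison. Tnmd, Tppp3, Cilp and Cilp2 passed the 2-fold rule in both SZ comparisons under each of them. Some alternatives could change little. The mean of all clusters of a gene was bound to give the same result, since no member had more than 1 cluster. Leaving out an array of the zone not compared could change the shared spread but not a difference. With no minimum fold Cnmd and Scx passed too, and Cnmd met the rule against RZ without SZ replicate 3 (-1.04) and without SZ replicate 4 (-1.01). The replicate block for pairs of animals, fixed or random, changed no call of a member. With the fixed block Tnmd in SZ exceeded IDZ by 4.60 (limma adjusted p = 1.9e-07). With that block Tppp3 in IDZ exceeded RZ by 0.41 (limma adjusted p = 0.072). With the random block these differences were 4.60 and 0.41 as well (limma adjusted p = 1.9e-10 and 0.44). Cilp2 in IDZ minus RZ was -0.024 and turned to 0.031 with quantile normalization again and to 0.032 with scaling to the 75th percentile. It ranged over -0.071 to 0.064 when single arrays were left out, above 0 without IDZ replicate 4 (0.064) and without RZ replicate 3 (0.00036). The calls over all clusters (810 higher and 267 lower in SZ than in IDZ, 873 and 368 against RZ, 142 and 109 for IDZ against RZ) became 3226 and 3064, 2747 and 3026, 760 and 1080 with no minimum fold, and 324 and 66, 453 and 124, 34 and 27 when tested against 2-fold.

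The differences of Tnmd over Cnmd ranged over 5.22 to 5.68 (SZ minus IDZ), 5.64 to 6.11 (SZ minus RZ) and 0.38 to 0.49 (IDZ minus RZ) when single arrays were left out, each with p = 0.0571, the smallest an exact permutation test of 3 against 4 arrays allows. Paired within animals by the replicate block, IDZ minus RZ was 0.42 with p = 0.125, the smallest that exact sign flips of 4 pairs allow. Cilp over Cilp2 in SZ minus IDZ became 0.021 with quantile normalization again and ranged over -0.27 to 0.068 when single arrays were left out, and in SZ minus RZ over -0.091 to 0.25, below 0 without SZ replicate 2. Of genes from the lists, Sox5 (without SZ replicate 1 or 4), Col11a2 (7 alternatives) and Vegfa (3 alternatives) left the 2-fold rule between SZ and IDZ. So did Serpinf1 (without RZ replicate 1) and Col1a2 (plain one-way contrasts) between IDZ and RZ. Tested against 2-fold, Col1a1, Col1a2, Col12a1, Twist1, Tppp, Col9a2, Matn1, Matn3, Snorc and Chst11 no longer passed between SZ and IDZ, nor Col1a2, Col12a1, Col14a1, Ltbp1, Spry2 and Serpinf1 between IDZ and RZ, and Sox5, Col11a2 and Vegfa are among those lost between SZ and IDZ. The likeness to the members without SZ replicate 4, chosen after seeing the data, kept Kera first for Tnmd, Emcn for Tppp3 and Tmod2 for Cilp. The top gene moved to rank 2 for the other members, Kera for Cilp2, Maob for Scx and Snorc for Cnmd. Med12l moved from rank 2 to rank 13 for Cnmd.

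The lack of a detection call limits Tnmd in IDZ and RZ, and 4 arrays per zone limit the ratio tests. SZ against IDZ or RZ cannot be told apart from single animals against pools.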
